A study of Mus musculus with 6 samples.

Results

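Toll-like receptors are pattern receptors of the innate immune system, and their transcripts were followed here with those of the co-receptor CD14 and the adaptor MyD88 in mouse hematopoietic stem cells (HSCs), which were taken from bone marrow. The 9 genes are Tlr1, Tlr2, Tlr4, Tlr6, Tlr7, Tlr9, Tlr13, Cd14 and Myd88. They were found as every non-control probe whose RefSeq accession belongs to one of these symbols, which gave 11 of the 55681 probes of the array. Tlr7 had 3 probes and each other gene had 1. After a filter on dim probes, 7 of the 9 genes were among the 22630 genes tested, while Tlr4 and Tlr6 were too dim to test.

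Receptors that sense lipids of bacterial walls, such as TLR1, TLR2, TLR4 and TLR6, sit at the cell surface, and TLR2 works as a partner of TLR1 or of TLR6. TLR7, TLR9 and the mouse receptor TLR13 sit in endosomes, where they sense single-stranded RNA, unmethylated CpG DNA and bacterial ribosomal RNA. All of these receptors signal through MyD88, which recruits IRAK kinases and leads to NF-kappaB and IRF transcription factors. Blood stem and progenitor cells can carry such receptors, while monocytes, macrophages, granulocytes, B cells and dendritic cells are the cells best known for them.

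The study compared Cdk6-/- HSCs with wild-type HSCs, both after polyI:C, a double-stranded RNA mimic that sets off interferon, and untreated, to learn how the cell cycle kinase CDK6 acts in stem cell activation. There were 6 two-colour arrays, on which the Cy5 channel held a single Cdk6-/- sample and the Cy3 channel held pooled, sorted wild-type HSCs that had been treated alike. The groups were Cdk6-/- with polyI:C (3 samples), Cdk6-/- untreated (3 samples), 1 polyI:C-treated wild-type pool and 1 untreated wild-type pool. The series calls the 3 arrays of a group biological replicates. Each pool was hybridised 3 times, so its spread is technical and it counts as 1 control sample. Dyes were not swapped, so a dye bias of a probe cannot be told apart from a genotype difference, although it cancels when the ratios of the treatments are compared. The labels give the genotype as Cdk6-/- with no further detail, and the strain, age and number of mice behind a sample or pool are not given in the sources used here.

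All 10 HSC and progenitor markers examined, Kit, Slamf1 and Procr among them, were well above background in both channels of every array. The 10 granulocyte markers examined were as well, so these calls do not set cell types apart. Across all genes, the log2 ratio of Cdk6-/- to wild type passed the threshold (limma adjusted p under 0.05) for 2250 genes that were lower and 694 that were higher without treatment. This split was 1333 lower and 4863 higher when arrays were centred on their median in place of loess. The median of all genes was then 0.21 with polyI:C and 0.30 without treatment, in place of -0.02 and -0.05, and Tlr13 stood at 0.79 and -0.75. Within a group, arrays differed in Xist, transcribed from the inactive X chromosome, whose log2 ratio was 1.1, 1.87 and -3.42 on polyI:C arrays 1, 2 and 3 and 1.1, 0.42 and -3.98 on untreated arrays 1, 2 and 3. Array 3 of each treatment therefore stood apart in an X-linked transcript, and Tlr7 and Tlr13 are themselves X-linked, so values without these arrays are given for both genes. The share of Cdk6-/- spots well above background was 47.0, 51.8 and 76.5% on the polyI:C arrays and 53.3, 55.7 and 53.7% on the untreated arrays, with polyI:C array 3 alone on its slide. On that array spots could be called well above background at levels that were not called on other arrays, so counts of such calls are not fully alike. The 1 probe for Cdk6 lies at an unknown place relative to the deletion and checks nothing. With polyI:C, where the probe was above background, the log2 ratio of Cdk6 was -0.26, -0.44 and -1.28.

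The stretch just before the gene start is shown for the endosomal receptors Tlr13, which passed a test in more than 1 comparison, and Tlr9, which had none past the threshold, and for the shared adaptor Myd88. The sequences are RefSeq's on GRCm38.p6 and cover 250 bases, at chrX:106143025-106143274 (plus strand) for Tlr13, chr9:106222348-106222597 (plus strand) for Tlr9 and chr9:119340019-119340268 (minus strand) for Myd88. Capitals mark matches, on either strand, to the letters GAGGAA (the core bound by the myeloid factor PU.1), a pair of GAAA runs set 2 bases apart (the core of interferon response elements) or the kappaB consensus bound by NF-kappaB.
Tlr13: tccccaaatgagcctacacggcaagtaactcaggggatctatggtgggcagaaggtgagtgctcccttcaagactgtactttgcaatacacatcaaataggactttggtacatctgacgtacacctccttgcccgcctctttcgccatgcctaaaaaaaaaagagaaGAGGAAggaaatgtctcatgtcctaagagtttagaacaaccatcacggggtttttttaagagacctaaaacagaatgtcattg
Tlr9: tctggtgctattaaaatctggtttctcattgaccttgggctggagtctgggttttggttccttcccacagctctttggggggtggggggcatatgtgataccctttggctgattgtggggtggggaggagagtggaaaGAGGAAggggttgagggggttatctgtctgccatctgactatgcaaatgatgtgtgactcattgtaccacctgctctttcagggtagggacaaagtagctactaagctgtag
Myd88: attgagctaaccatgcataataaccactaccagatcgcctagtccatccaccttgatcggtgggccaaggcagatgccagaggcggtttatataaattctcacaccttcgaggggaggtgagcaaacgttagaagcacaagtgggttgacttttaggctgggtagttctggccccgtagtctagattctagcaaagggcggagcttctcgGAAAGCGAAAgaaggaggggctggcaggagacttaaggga

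Tlr13 held GAGGAA at bases -83 to -78 from its start and Tlr9 held it at -112 to -107, a motif that 23.3% of all 32851 such stretches contain. Myd88 held GAAAGCGAAA at -40 to -31, of a core present in 2.98% of stretches. Of the 9 genes, 6 had entries in the table. The entries for Tlr1, Tlr2 and Tlr6 start inside the annotated span of their gene and are not printed. Tlr2 held overlapping kappaB matches between -173 and -163 (7.25% of stretches hold this motif), 1 of the Tlr1 entries held GAGGAA, and 1 of the Tlr6 entries held overlapping copies of the interferon core on the minus strand. A match is a run of letters and says nothing of whether a factor binds there.

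Without treatment, Tlr13 and Tlr7 were lower in Cdk6-/- HSCs than in the wild-type pool, and no tested gene of the family was higher beyond the threshold. With polyI:C, none of the 7 tested genes passed in either direction. Only Tlr13 passed the test of the difference between treatments. These counts are 2 of 7 without treatment against 13% of all genes (9.94% lower), 0 of 7 with polyI:C against 0.981%, and 1 of 7 for the difference against 1.81% (1.6% higher). At an unadjusted p under 0.05, taken in either direction, 3 of the 7 genes passed without treatment (all lower) against 28.5% of all genes. With polyI:C 3 passed (all higher) against 13.4%, and 4 passed for the difference (all higher) against 16.5%. The median log2 ratio of the 7 genes was 0.40 with polyI:C and -0.37 without treatment, beside -0.02 and -0.05 over all genes tested.

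**Figure D1:**
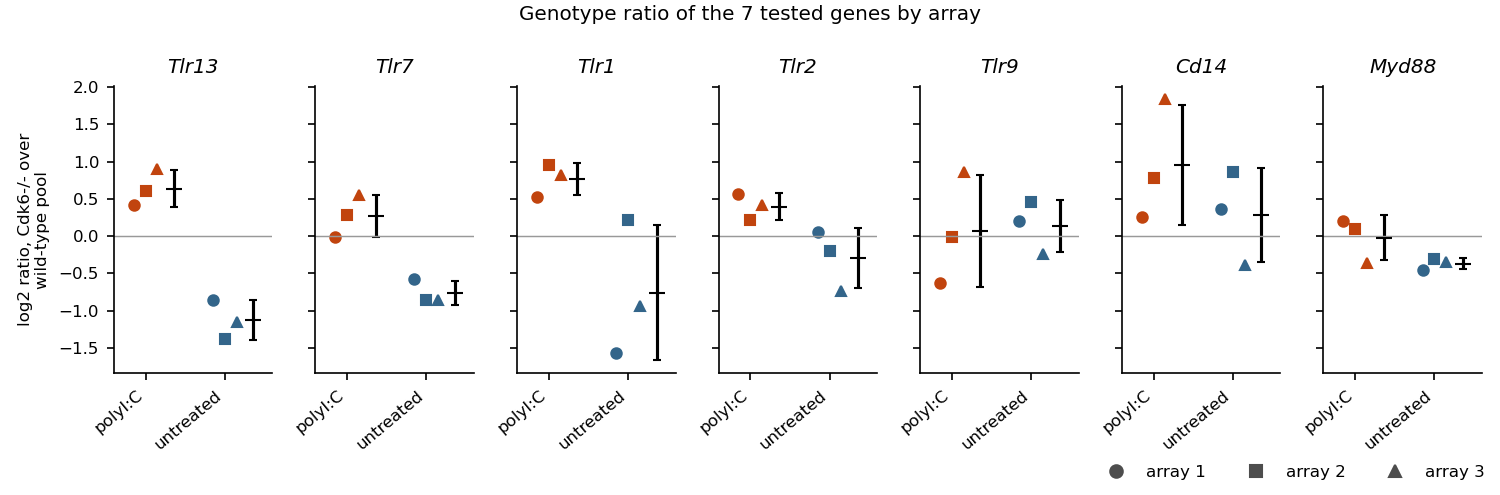
Log2 ratio of Cdk6-/- (Cy5) to the wild-type pool (Cy3) for the 7 tested genes. Each point is 1 array, and the bar is the mean with its SD over 3 arrays; the polyI:C arrays of Tlr13 lie between 0.41 and 0.90 and its untreated arrays between -1.38 and -0.85.

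Among the endosomal receptors, Tlr13 passed both the untreated test and the test of the difference. The log2 ratio of this gene, Cdk6-/- over wild type, was 0.41, 0.60 and 0.90 on the polyI:C arrays and -0.85, -1.38 and -1.15 on the untreated arrays. All polyI:C arrays were above 0, all untreated arrays below it, and the treatments did not overlap. Untreated Cdk6-/- HSCs thus had 2.18-fold less Tlr13 signal than the pool (log2 ratio -1.13, SE 0.18, SD 0.27, limma adjusted p = 0.00451, n = 3). The polyI:C ratio of 0.64 (SE 0.18, SD 0.25) did not pass (limma adjusted p = 0.157). The ratio was 1.77 log2 units higher with polyI:C than without (SE 0.26, limma adjusted p = 0.0153). That SE and p cover the spread between arrays and hold no variation between wild-type pools, since each treatment had 1 pool. Because these are bulk samples, fewer cells of a type and less RNA per cell cannot be told apart.

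The channels show where the Tlr13 difference lay. In Cdk6-/- HSCs, the log2 level of Tlr13 was 9.17, 9.11 and 9.49 with polyI:C and 9.74, 9.10 and 9.5 without. These overlapped and differed by -0.19 (SE 0.32, limma adjusted p = 0.918). In the wild-type pools, the log2 level was 8.76, 8.51 and 8.59 in the polyI:C-treated pool and 10.59, 10.48 and 10.65 in the untreated pool. The treated wild-type pool was therefore 3.87-fold lower (log2 difference -1.95), a comparison of 1 pool with 1 pool that allows no test. Of all genes, 23.2% likewise had pool levels that did not overlap and were lower with polyI:C.

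**Figure D2:**
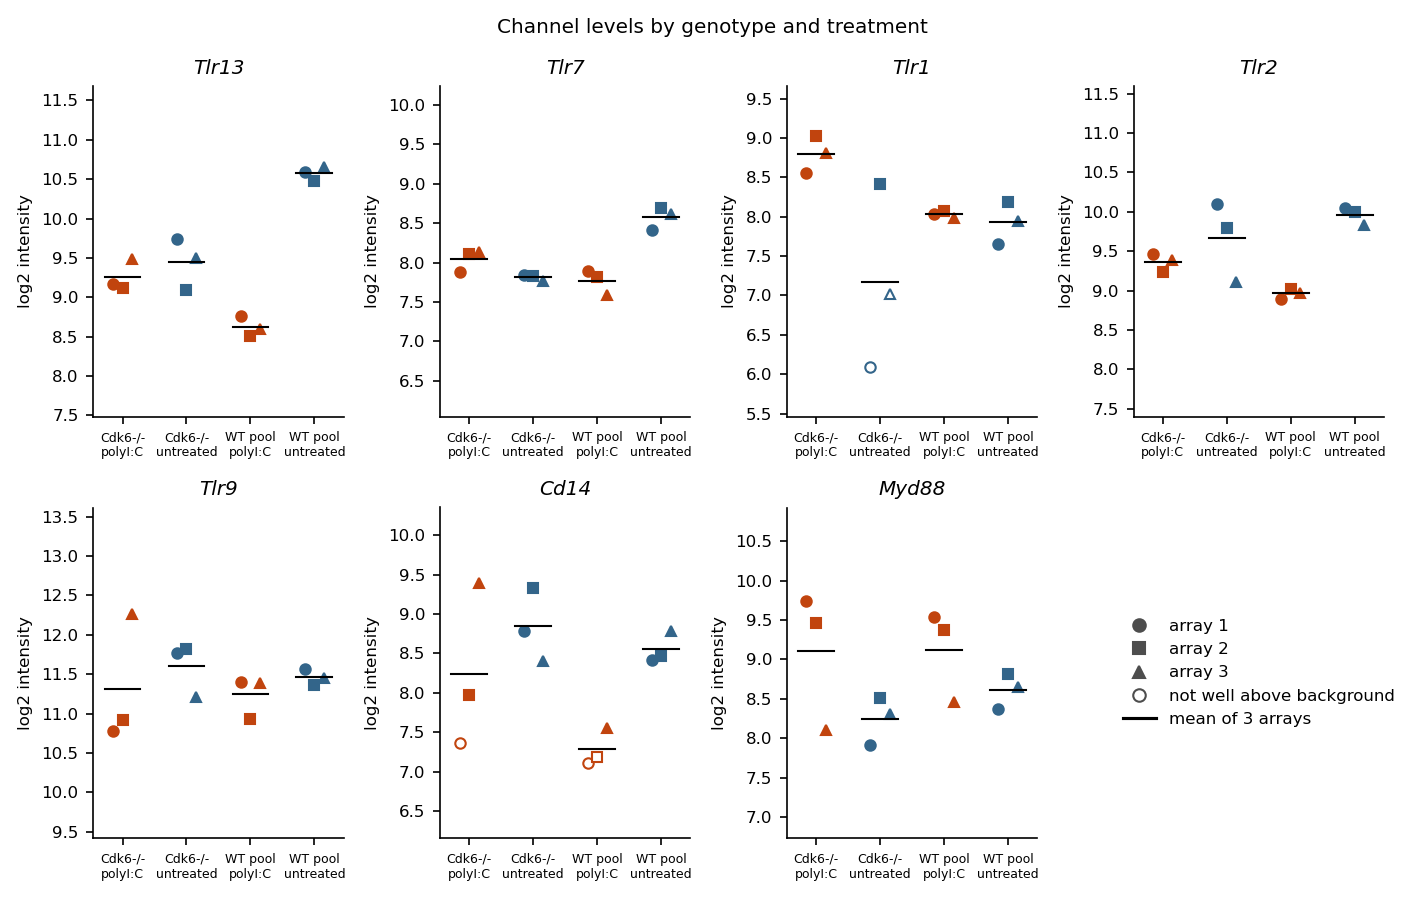
Log2 intensity of the 7 tested genes in each channel after normalization, by genotype and treatment. Points are arrays, open where the spot was not well above background, and lines are means; the wild-type pool of Tlr13 averages 8.62 with polyI:C and 10.57 untreated, while the Cdk6-/- means are 9.26 and 9.45.

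The Tlr13 result was present on every slide that carried both treatments. The difference of the ratio was 1.41 on slide 1 and 1.98 on slide 2, and the corresponding differences of the pool level were -1.86 and -1.96. Without array 3 of both treatments, the untreated ratio was -1.12 (limma adjusted p = 0.0388), and the difference between treatments was 1.62 and no longer passed (limma adjusted p = 0.140). No gene of the array passed the difference in that fit, while 4554 did at an unadjusted p under 0.05. The difference also missed the threshold without untreated array 3 (1.75, limma adjusted p = 0.0571), without polyI:C array 2 (1.78, limma adjusted p = 0.0538) and without polyI:C array 3 (1.63, limma adjusted p = 0.0685). In those fits 67, 87 and 6 genes of the array passed, against 409 with all arrays. A fit with slide as a fixed block gave 1.66 (limma adjusted p = 0.109), and in that limma fit no gene of the array passed (4437 did at an unadjusted p under 0.05).

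Tlr7 resembled Tlr13 in direction, with smaller values. The brightest of its probes had log2 ratios of -0.01, 0.29 and 0.55 on the polyI:C arrays and -0.57, -0.86 and -0.85 on the untreated arrays. The treatments again did not overlap. Untreated Cdk6-/- HSCs had 1.70-fold less Tlr7 signal (log2 ratio -0.76, SE 0.18, SD 0.17, limma adjusted p = 0.0210, n = 3). With polyI:C the log2 ratio was 0.27 (SE 0.18, limma adjusted p = 0.560), and the difference between treatments, 1.04 (SE 0.25), missed the threshold (limma adjusted p = 0.0702). The Tlr7 log2 level was 7.88, 8.10 and 8.14 in treated and 7.84, 7.83 and 7.77 in untreated Cdk6-/- HSCs. The wild-type pools stood at 7.89, 7.81 and 7.59 with polyI:C and at 8.41, 8.69 and 8.62 without, so the treated pool was 1.75-fold lower. Cdk6-/- samples lay within a narrow band under both treatments, and the untreated pool was the highest of the 4 groups.

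The probes of Tlr7 disagreed in part. A second probe had log2 ratios of -0.40, 0.25 and 0.18 with polyI:C and -1.06, -0.72 and -0.29 without treatment, and its untreated mean of -0.69 (SE 0.21) missed the threshold when probes were tested singly (limma adjusted p = 0.0563). That probe was not well above background in any untreated Cdk6-/- sample. The third probe failed the filter, with log2 ratios of -0.18, -0.09 and 0.16 with polyI:C and 0.61, 0.72 and -0.31 without. Its untreated values thus ran mostly the other way from those of the brightest probe. The Tlr7 call also rested on each untreated array: without array 1, 2 or 3 the untreated log2 ratio was -0.86, -0.71 and -0.72 (limma adjusted p = 0.0550, 0.0902 and 0.0968), and without array 3 of both treatments it was -0.72 (limma adjusted p = 0.0688).

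Tlr9 was well above background in every sample and passed no test. Its log2 ratio was -0.63, -0.01 and 0.86 on the polyI:C arrays and 0.20, 0.45 and -0.25 on the untreated arrays. The arrays of both treatments straddled 0. The means were 0.07 (SE 0.26, limma adjusted p = 0.938) with polyI:C and 0.14 (SE 0.26, limma adjusted p = 0.776) without, and they differed by -0.06 (SE 0.37, limma adjusted p = 0.962). The Cdk6-/- log2 level was 10.77, 10.92 and 12.26 with polyI:C and 11.77, 11.82 and 11.21 without, so polyI:C array 3 stood alone at the top. The wild-type pools ranged from 10.93 to 11.41 with polyI:C and from 11.37 to 11.57 without, and overlapped.

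Of the surface receptors, Tlr1 had the largest treatment difference in level within Cdk6-/- HSCs. Its Cdk6-/- log2 level was 8.56, 9.02 and 8.80 with polyI:C, well above background on all 3 arrays, and 6.09, 8.41 and 7.02 without, where only array 2 was well above background. The treated samples were all above the untreated ones, by 1.62 log2 units (SE 0.54), a difference that did not pass (limma adjusted p = 0.332). The wild-type pools lay together, at 8.03, 8.08 and 7.99 with polyI:C and 7.66, 8.19 and 7.95 without. Among all genes, 9.24% had Cdk6-/- levels that did not overlap with polyI:C higher, and Tlr1 and Tlr7 were the 2 of 7 that did here.

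The Tlr1 log2 ratio was 0.52, 0.95 and 0.82 on the polyI:C arrays and -1.57, 0.22 and -0.93 on the untreated arrays. The mean was 0.76 with polyI:C (SE 0.29, limma adjusted p = 0.281) and -0.76 without (SE 0.29, SD 0.91, limma adjusted p = 0.109), and the difference of 1.52 (SE 0.40) did not pass (limma adjusted p = 0.0896). Untreated array 2 stood apart from the other untreated arrays. Without it the untreated ratio was -1.25 (limma adjusted p = 0.0159) and the difference was 2.01 (limma adjusted p = 0.0202), both past the threshold, with the Cdk6-/- signal then not well above background on either remaining untreated array.

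Tlr2, the partner of TLR1, was measured by 10 spots on each array, and its ratio varied between those spots by an SD of at most 0.13. Its log2 ratio was 0.57, 0.21 and 0.41 with polyI:C and 0.05, -0.20 and -0.73 without. The treatments did not overlap, yet no test passed: the mean was 0.40 with polyI:C (SE 0.19, limma adjusted p = 0.417), -0.29 without (SE 0.19, limma adjusted p = 0.358), and the difference was 0.69 (SE 0.27, limma adjusted p = 0.238). Across all genes, the ratio did not overlap with polyI:C higher in 14.3%, and Tlr1, Tlr2, Tlr7 and Tlr13 were the 4 of 7 genes here that behaved so. The Tlr2 log2 level was 9.46, 9.24 and 9.39 in treated and 10.10, 9.80 and 9.11 in untreated Cdk6-/- HSCs, which overlapped. It was 8.89, 9.02 and 8.97 in the treated wild-type pool and between 9.84 and 10.05 on the 3 arrays of the untreated one, so the treated pool was 2.0-fold lower.

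Cd14, the co-receptor that passes lipopolysaccharide to TLR4, entered the tests through the untreated arrays alone. With polyI:C it was well above background in 2 of 3 Cdk6-/- samples and on 1 of 3 arrays of the wild-type pool. The Cd14 log2 ratio was 0.26, 0.78 and 1.84 with polyI:C and 0.37, 0.86 and -0.38 without. Most arrays were above 0, and the treatments overlapped. The means were 0.96 (SE 0.31, limma adjusted p = 0.201) with polyI:C and 0.28 (SE 0.31, limma adjusted p = 0.589) without, and the difference was 0.68 (SE 0.43, limma adjusted p = 0.482). The pool's log2 level was 7.11, 7.19 and 7.56 with polyI:C and 8.42, 8.47 and 8.79 without, a difference of -1.28 that includes dim spots. The Cdk6-/- log2 level was 7.37, 7.97 and 9.40 with polyI:C and 8.79, 9.34 and 8.41 without, with polyI:C array 3 again the highest.

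Tlr4 and Tlr6 stayed near background. Tlr4, the lipopolysaccharide receptor, was well above background in neither channel of any polyI:C array, and without treatment in 2 of 3 Cdk6-/- samples and on 1 of 3 pool arrays. Its log2 ratio was 0.59, 0.08 and -0.14 with polyI:C and -0.13, 0.61 and 0.25 without. Tlr6 was well above background in 1 of 3 treated and 2 of 3 untreated Cdk6-/- samples, and on 0 of 3 treated and 2 of 3 untreated pool arrays. The treated Cdk6-/- call was on polyI:C array 3, at a log2 level of 6.83, while polyI:C arrays 1 and 2, at 7.72 and 7.43, were not called. The ratio of Tlr6 was 0.73, 0.60 and 0.35 with polyI:C and 0.22, 0.48 and 0.34 without, above 0 on every array. At these signals a difference was not measurable for either gene.

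Myd88, the adaptor shared by these receptors, passed no test. Its log2 ratio was 0.20, 0.10 and -0.36 on the polyI:C arrays and -0.46, -0.31 and -0.34 on the untreated arrays, measured with up to 10 spots whose SD was at most 0.16. The untreated arrays lay close together below 0. The untreated mean of -0.37 (SE 0.18, SD 0.08) did not pass (limma adjusted p = 0.202), and neither did the polyI:C mean of -0.02 (SE 0.18, limma adjusted p = 0.978) or the difference of 0.35 (SE 0.25, limma adjusted p = 0.533). In level, Myd88 stood at 9.75, 9.47 and 8.10 in treated and 7.91, 8.51 and 8.30 in untreated Cdk6-/- HSCs on the log2 scale. The wild-type pools stood at 9.54, 9.37 and 8.47 with polyI:C and at 8.37, 8.81 and 8.65 without. PolyI:C arrays 1 and 2 were above all untreated arrays in both channels and polyI:C array 3 was not, and the treatment difference within Cdk6-/- HSCs of 0.86 (SE 0.46) did not pass (limma adjusted p = 0.581).

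No gene of the family passed the test of polyI:C against untreated within Cdk6-/- HSCs, where 0.168% of all genes did; at an unadjusted p under 0.05, 1 of the 7 (Tlr1) and 10.3% of all genes passed. In the wild-type pools, Tlr2, Tlr7 and Tlr13 had levels that did not overlap and were lower with polyI:C, as did 23.2% of all genes. Cd14 did too, but since it entered the tests only through the untreated arrays, that order was favoured by the filter and is not counted. The plot of the 4 tests sets these results side by side.

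**Figure D3:**
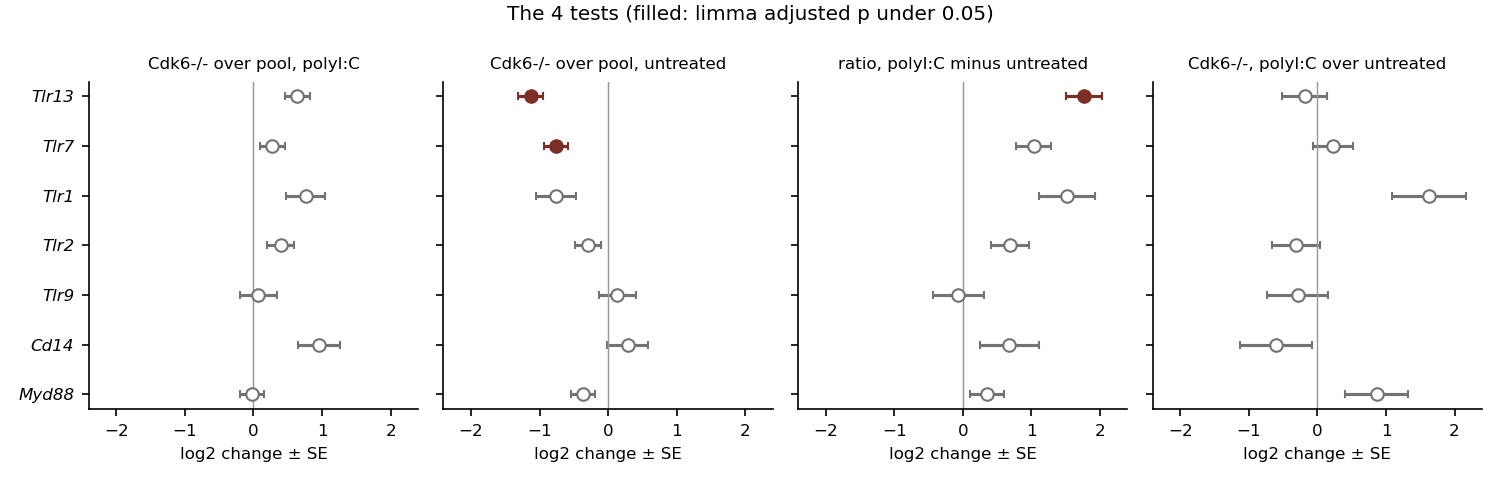
Log2 change and SE of the 7 tested genes in the 4 tests, from limma. Filled points passed an adjusted p of 0.05: Tlr13 at -1.13 and Tlr7 at -0.76 in the untreated genotype ratio, and Tlr13 at 1.77 in the difference between treatments.

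Other genes of the pathway were taken from lists by role. Of 15 other receptors and accessory proteins, 11 were tested, and without treatment 3 were lower in Cdk6-/- HSCs, against 9.94% of all genes, and none higher, with a list median of -0.37. Unc93b1, the chaperone that carries the endosomal receptors out of the endoplasmic reticulum, had log2 ratios of 0.26, 0.09 and 0.07 with polyI:C and -1.08, -0.27 and -1.34 without (untreated mean -0.90, SE 0.21, limma adjusted p = 0.0229). Ctss, a cathepsin able to cleave endosomal receptors, had 0.24, 0.02 and 0.75 with polyI:C and -1.13, -0.45 and -1.25 without (untreated mean -0.94, SE 0.21, limma adjusted p = 0.0189). Both genes had every treated array above 0 and every untreated array below it, as Tlr13 did. The calls were lost without untreated array 1 (Unc93b1 -0.80, Ctss -0.85, limma adjusted p = 0.115 and 0.0993) and without untreated array 3 (Unc93b1 -0.68, Ctss -0.79, limma adjusted p = 0.136 and 0.111). Cd36, a scavenger receptor that assists TLR2, was lower without treatment (-1.17, SE 0.27, limma adjusted p = 0.0191) and not well above background in either channel with polyI:C. Cd36 passed the filter only through the untreated pool, where it was high, so a lower value in Cdk6-/- was favoured. It did not pass without untreated array 2 (-0.72, limma adjusted p = 0.0884) or array 3 (-1.33, limma adjusted p = 0.0511). Of the other Toll-like receptors on the array, Tlr3, the receptor for double-stranded RNA such as polyI:C, was not well above background on any array, and of Tlr3, Tlr5, Tlr8, Tlr11 and Tlr12 only Tlr12 was tested.

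Of 12 adaptor and Myddosome genes, 9 were tested and 1 passed, a share near the 13% of all genes called without treatment. This gene, Pik3ap1, an adaptor that links Toll-like receptors to PI3-kinase, was lower in untreated Cdk6-/- HSCs (-0.63, SE 0.17, limma adjusted p = 0.0389). It did not pass when any array but polyI:C array 3 was left out, at -0.79, -0.57 and -0.53 without untreated array 1, 2 or 3 (limma adjusted p = 0.0529, 0.151 and 0.168) and at the same log2 ratio without polyI:C array 1 or 2 (limma adjusted p = 0.0637 and 0.0739). Tirap, which bridges TLR2 and TLR4 to MyD88, was at -0.26 without treatment (limma adjusted p = 0.393), and Ticam1, the MyD88-independent adaptor of TLR3, was at 0.32 (limma adjusted p = 0.273). The adaptor list median was 0.07 with polyI:C and -0.11 without.

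Of 19 kinases and transcription factors, 18 were tested, and 1 was lower without treatment, against 9.94% of all genes. This was Irf8, a transcription factor of monocyte and dendritic lineages, with log2 ratios of 0.14, 0.51 and 1.25 with polyI:C and -0.71, -0.59 and -1.65 without (untreated mean -0.98, SE 0.26, limma adjusted p = 0.0349). That call was lost without untreated array 1, 2 or 3 (-1.12, -1.18 and -0.65, limma adjusted p = 0.0775, 0.0520 and 0.197) and without polyI:C array 2 (limma adjusted p = 0.0525). Irf7, an interferon-induced factor activated through MyD88, rose with polyI:C within Cdk6-/- HSCs by 3.46 log2 units (SE 0.32, limma adjusted p = 0.0101), and its level in the treated pool was 3.62 above that in the untreated pool. The treatment difference of Irf7 was 3.31 to 3.64 without any 1 untreated array (limma adjusted p = 0.0776 to 0.110) and 3.53 without polyI:C array 1 (limma adjusted p = 0.0572). Its genotype ratio passed under neither treatment (-0.52 and -0.36, limma adjusted p = 0.246 with polyI:C and 0.231 without). Map3k7 and Tab1, the TAK1 kinase and its partner, were at 0.18 and 0.17 without treatment (limma adjusted p = 0.693 and 0.612).

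Among the 12 inhibitors, all tested, 1 was higher without treatment, against 3.07% of all genes. Tnip3, which binds the deubiquitinase A20, had log2 ratios of -0.15, 0.15 and -0.04 with polyI:C and 1.48, 0.88 and 0.93 without (untreated mean 1.1, SE 0.18, limma adjusted p = 0.00519). Its value depended on the probe chosen, since the mean over its probes was -0.03 (limma adjusted p = 0.926). Tnfaip3, which encodes A20, was at 0.94 with polyI:C (SE 0.22, limma adjusted p = 0.0912), and Nfkbia, the NF-kappaB inhibitor, was at 0.39 (limma adjusted p = 0.492).

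Of 16 target genes, 11 were tested, and 4 were lower in untreated Cdk6-/- HSCs, against 9.94% of all genes: the cytokine Il1b (-0.92, limma adjusted p = 0.0379), the chemokine Ccl3 (-1.05, limma adjusted p = 0.0211), the co-stimulatory receptor Cd40 (-1.09, limma adjusted p = 0.00627) and the prostaglandin synthase Ptgs2 (-0.97, limma adjusted p = 0.0411). Cd40 and Ptgs2 were each well above background in only 1 of 3 untreated Cdk6-/- samples and on all 3 arrays of the untreated pool, so both values include dim spots. Cd40 passed the filter only through that pool, which favoured a lower value in Cdk6-/-. Without untreated array 1 or 3, Ccl3 was at -0.70 and -1.18 (limma adjusted p = 0.129 and 0.0571) and Il1b at -1.03 and -0.52 (limma adjusted p = 0.0883 and 0.198). Il1b also missed the threshold without polyI:C array 1, 2 or 3 (limma adjusted p = 0.0510, 0.0578 and 0.0528). The untreated ratio of Ptgs2 did not pass without untreated array 1 or 2 (-0.79 and -0.77, limma adjusted p = 0.194 and 0.189) or polyI:C array 2 (limma adjusted p = 0.0607). Ptgs2 had log2 ratios of 1.54, 0.85 and 0.48 with polyI:C and -1.33, -1.38 and -0.20 without, and the difference of 1.93 passed (SE 0.38, limma adjusted p = 0.0366). The treatments did not overlap in Ptgs2. It passed the filter only through the untreated pool and the treated Cdk6-/- samples, which favoured a higher ratio with polyI:C. Ptgs2 was not well above background on any array of the treated pool. Its mean log2 level there was 6.79, against 7.75 in treated Cdk6-/- samples, a gap that includes dim spots. The difference between treatments missed the threshold under 9 alternatives. Among these were leaving out polyI:C array 1, 2 or 3 (1.64, 1.98 and 2.17, limma adjusted p = 0.116, 0.0956 and 0.0923) and untreated array 1 or 2 (1.75 and 1.73, limma adjusted p = 0.0985 and 0.0796). Ccl5, an interferon-induced chemokine, was 3.93 higher with polyI:C within Cdk6-/- HSCs (SE 0.34, limma adjusted p = 0.0101) and 3.77 higher in the polyI:C-treated pool than in the untreated one. Its difference was 3.78 to 4.16 without any 1 untreated array (limma adjusted p = 0.0704 to 0.110) and 3.82 without polyI:C array 1 (limma adjusted p = 0.0572). Tnf was at 1.34 with polyI:C (SE 0.29, limma adjusted p = 0.0660).

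None of the 6 tested receptors of the IL-1 family, which also use MyD88, passed a test, while 13% of all genes passed without treatment. Il1r1 was at -0.53 and Il1rap at 0.05 without treatment (limma adjusted p = 0.326 and 0.900). No gene of any pathway list passed the genotype test with polyI:C, where only 0.981% of all genes did. The list medians were 0.27 with polyI:C and -0.37 without for other receptors, 0.37 and -0.15 for targets, and 0.17 and 0.12 for inhibitors.

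**Figure D4:**
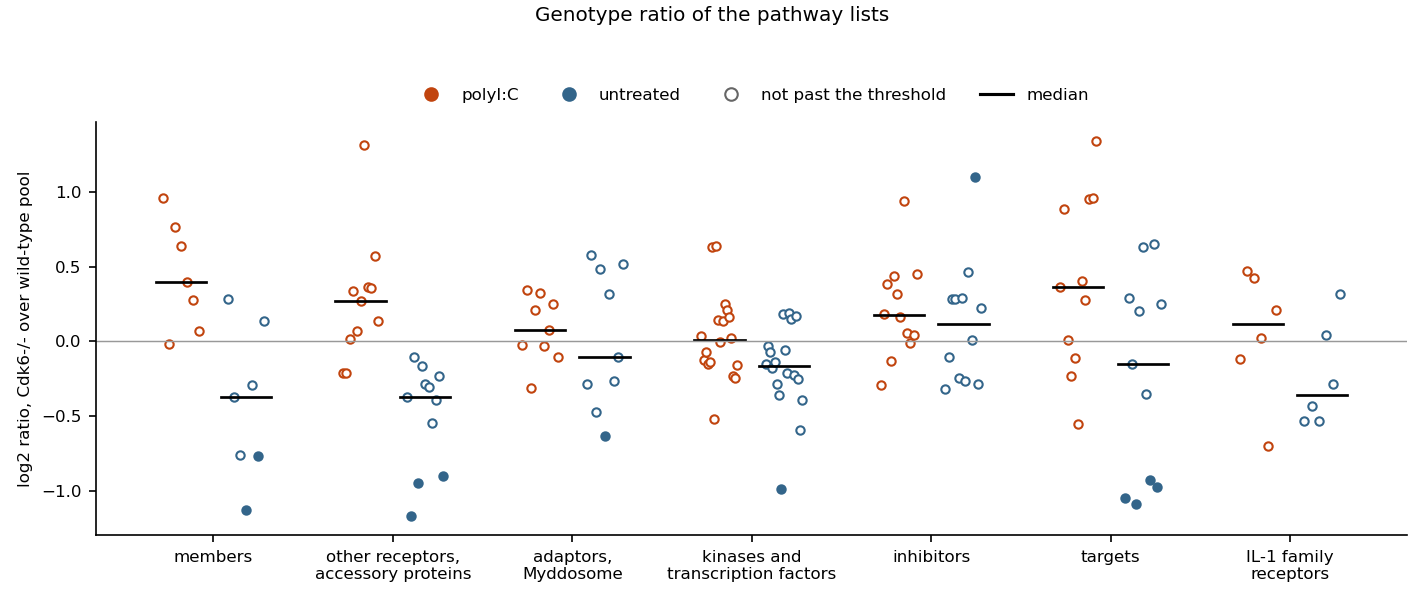
Log2 ratio of Cdk6-/- to the wild-type pool for each tested gene of the family and of 6 pathway lists, with polyI:C and untreated. Points are means over 3 arrays, filled where limma's adjusted p was under 0.05, and lines are medians; all filled points belong to the untreated comparison and only Tnip3, at 1.1, lies above 0.

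Granulocyte, monocyte and B cell lists held markers that, like Tlr13 and Tlr7, were lower in untreated Cdk6-/- HSCs, as were 9.94% of all genes, and the other marker lists were mixed, ran otherwise or had no call. All 10 granulocyte markers were tested, and 5 were lower in untreated Cdk6-/- HSCs and 5 were higher in the difference between treatments, where 1.6% of all genes were, with a median log2 ratio of 0.80 with polyI:C and -0.89 without. Of 11 tested monocyte and macrophage markers, 2 (Lyz2 and Ccr2) were lower without treatment, and the medians were 0.80 and -0.45. Of 8 B cell markers, 7 were lower without treatment, and the medians were 0.02 and -1.54. Ccr2 and the B cell kinase Blk passed the filter only through the untreated pool. Plasmacytoid dendritic markers, whose cells are rich in TLR7 and TLR9, were mixed, with medians of 0.10 with polyI:C and 0.59 without. Of 7 tested, Siglech and Tcf4 were higher in untreated Cdk6-/- HSCs and Cox6a2 was lower (-1.28, limma adjusted p = 0.00589), and Ly6d was at -0.56, -0.44 and -0.95 on the untreated arrays (limma adjusted p = 0.0905). The erythroid median was below 0 under both treatments. It was -1.47, -0.27 and -1.32 on the polyI:C arrays and -0.61, -0.49 and -0.81 on the untreated arrays. Of its 6 markers, 2 were lower with polyI:C, against 0.654% of all genes, and 2 without treatment, against 9.94%. The T and NK cell median was 0.33, 0.22 and -0.04 with polyI:C and -0.32, -0.40 and -0.26 without, and none of its 8 markers passed. The HSC and progenitor markers had medians of -0.04 and 0.21, and none passed.

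By array, the granulocyte median was 0.63, 0.47 and 1.3 with polyI:C and -0.78, -0.41 and -1.66 without. The monocyte median was 0.56, 0.33 and 1.27 with polyI:C and -0.42, 0.00 and -1.10 without. Both lists had their most extreme median on array 3 of each treatment. The highest Tlr13 ratio (0.90) was likewise on polyI:C array 3. Its lowest ratio (-1.38) was on untreated array 2, where the monocyte median was at 0. The summed granulocyte signal ranged from 171211 to 226931 in treated and from 184211 to 261559 in untreated Cdk6-/- HSCs. In the pools it ranged from 104240 to 141647 with polyI:C and from 354306 to 482862 without, the same order as the Tlr13 levels of the 4 groups in having the untreated pool highest and the treated pool lowest. For monocytes the sum was 17680 to 36895 in treated and 23777 to 32312 in untreated Cdk6-/- HSCs, against 18395 to 20268 in the treated and 36060 to 40574 in the untreated pool.

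B cell signal summed to between 3850 and 5054 in treated and between 6239 and 11179 in untreated Cdk6-/- HSCs, and to between 4513 and 5062 in the treated and between 24517 and 27820 in the untreated pool. None of the defining granulocyte markers was at background on any array. Among monocyte markers only Ccr2 fell below it, with 2 of 6 Cdk6-/- and 4 of 6 pool arrays well above background, and Ly6c2 had no probe. The part of these cell types in the results for Tlr13 and Tlr7 was not tested.

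**Figure D5:**
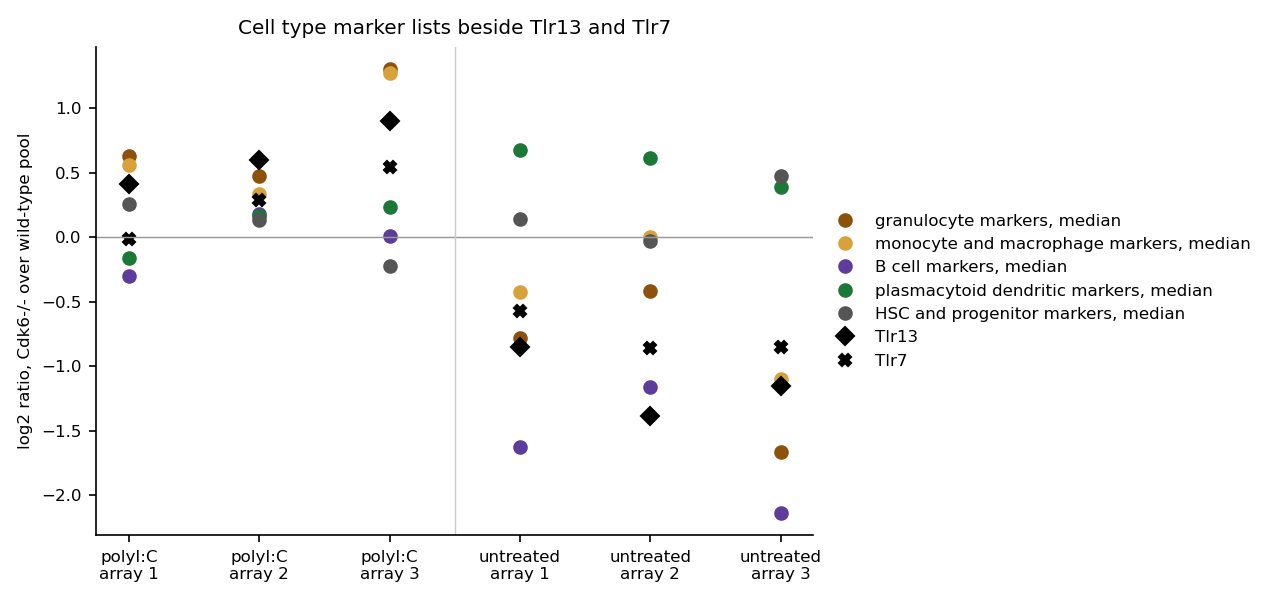
Median log2 ratio of Cdk6-/- to the wild-type pool over the markers of 5 cell types on each array, with Tlr13 and Tlr7. Granulocyte medians lie above 0 on the 3 polyI:C arrays and below 0 on the 3 untreated arrays, as Tlr13 does; plasmacytoid dendritic medians lie above 0 on all untreated arrays.

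Tlr13 and Tlr7 followed each other across the 6 arrays (Pearson r = 0.987 of the log2 ratio), a description in which the points share pools, slides and the split between treatments. The tested genes most like Tlr7 by the same measure were Ear2 (r = 0.9997) and Ear1 (r = 0.998), ribonucleases of eosinophils and related myeloid cells, with mean ratios of -0.43 and -0.31 with polyI:C and -2.28 and -3.06 without. Those most like Tlr13 were Prss1 and Wdr86 (r = 0.995 each). Many genes came near these values, as 173 of 13561 other named genes exceeded 0.95 with Tlr13 and 130 did with Tlr7. Most like Tlr1 were Rab3il1 (r = 0.997) and Dupd1 (r = 0.996), and most like Tlr2 were Ifnlr1 (r = 0.995) and Sgms2 (r = 0.993). For Tlr9 they were Krtap10-4 and Gm3285 (r = 0.999 and 0.998), for Cd14 Adamts2 and Slfn4 (r = 0.988 and 0.986), and for Myd88 Odf3b and Med12 (r = 0.995 each). Among all pairs of the 7 tested members, r was lowest for Tlr9 and Myd88 (-0.65). This too is a description over 6 arrays and was not tested.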

How the data were processed

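RNA of sorted HSCs, with integrity numbers of 5,3 to 8,9, was amplified with TransPlex WTA2 and coupled to guanine-binding platinum dyes, per the labels' protocols. Per the file headers, the two-colour Agilent arrays follow the mouse annotation mm9 (NCBI37), and Feature Extraction 11.5.1.1 made the files. As deposited, these give the median intensity of spots and background, a processed signal (again an intensity) and a log10 ratio of red over green. Deposited flags (other) mark controls, outlying and non-uniform spots and those well above background. The value table, in log2 as deposited, matched processed Cy5 over processed Cy3 to within 2.5e-06 on 55249 single-spot probes and was not centred further. Its column medians were 0.22, 0.18 and -0.04 for polyI:C arrays and 0.22, 0.12 and 0.20 for untreated arrays.

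Mean signals had been planned, but the scanner files give medians, and these were used with normexp (offset 50) and loess within arrays in limma 3.58.1 under R 4.3.3, with statmod 1.5.0. Flagged spots (0.657%) and controls were removed, and a probe's spots were averaged. Probes were tested if, in either channel, they were well above background throughout a group of 3 arrays, as were 31802 of 55681. The brightest tested probe stood for its gene, which left 22630 genes, 13636 with a RefSeq symbol (GRCm38.p6). Arrays had 59305 non-control spots, none of them saturated. The number of arrays limits the precision.

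Ratios were fitted with lmFit and eBayes over all 6 arrays (4 residual degrees of freedom), giving a mean per treatment and their difference. Treatment within Cdk6-/- was tested on log2 Cy5 levels after Aquantile between arrays, which also gave the levels printed. Pools were compared as values. P-values were adjusted in limma over all tested genes (Benjamini-Hochberg) and measure the spread between these arrays. The script was tested on simulated data. Named were the 9 members, the first 2 genes of each pathway list with up to 4 that passed a test, and the 2 genes most correlated with each member. Members and lists were chosen with earlier results of these data known. Array numbers follow the order of deposition.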

Additional observations from a re-analysis of the deposited data

Results flagged for a closer look

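For 2 of the genes described above, the genotype ratio differed between treatments by the test of the difference itself. Tlr13 had a log2 ratio 1.77 higher with polyI:C than without (SE 0.26, limma adjusted p = 0.0153), with 3 of 3 treated arrays above 0 and 3 of 3 untreated arrays below 0. Ptgs2 had a ratio 1.93 higher (SE 0.38, limma adjusted p = 0.0366), with the same split of arrays. However, Ptgs2 was well above background in only 1 of 3 untreated Cdk6-/- samples and on 0 of 3 arrays of the treated pool. It passed the filter only through the untreated pool and the treated Cdk6-/- samples, which favoured a higher ratio with polyI:C. For both genes, the p-value holds no variation between wild-type pools, since each treatment had 1 pool.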

How the results depend on the processing

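Members past the threshold numbered 2 without treatment, 0 with polyI:C, 1 for the difference and 0 within Cdk6-/-. Median centring gave 1 without treatment (Tlr13) and 1 with polyI:C (Tlr13, 0.79, limma adjusted p = 0.0286). Leaving out single arrays gave 1 to 2 without treatment and 0 to 2 for the difference (the 2 being Tlr1 and Tlr13, without untreated array 2), and 0 elsewhere. Leaving out array 3 of both treatments gave 1 (Tlr13) and 0, and slide as a fixed block gave 0 for the difference. Tlr13 without treatment passed under all 15 alternatives (-1.27 to -0.75, limma adjusted p 0.00411 to 0.0388), Tlr7 under 10 of 15 (-0.96 to -0.53, limma adjusted p 0.0179 to 0.0968) and the Tlr13 difference under 11 of 16 (1.54 to 1.99, limma adjusted p 0.0115 to 0.140). Of 448 recomputed member values, 11 changed sign, all short of the threshold. Tnip3 without treatment turned to -0.030 with the mean of its probes.

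Over all genes, 2944, 222, 409 and 38 passed in the untreated ratio, the polyI:C ratio, the difference and within Cdk6-/-. Median centring gave 6196, 2571, 241 and 64, the scanner's processed signals 1962, 34, 179 and 11, and no filter 94 and 253 for the polyI:C ratio and difference and 17 within Cdk6-/-. Offset 16 gave 132 for the polyI:C ratio, and slide as a random block 125 within Cdk6-/-. Leaving out single arrays gave 1377 to 3427, 7 to 219, 6 to 375 and 0 to 23. Without array 3 of both treatments these were 1639, 0, 0 and 0 (6727, 3517, 4554 and 4134 at an unadjusted p under 0.05), and slide as a fixed block gave 0 for the difference (4437 unadjusted) and 18 within Cdk6-/-. The cause of these shifts was not tested, beyond the loss of arrays where arrays were left out. The labels give the groups no shared replicate numbers, so slide was the only block fitted. Tlr4, Tlr6, Cd14 with polyI:C and Tlr1 in untreated Cdk6-/- were limited by signal over background.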
